A study of Mus musculus with 6 samples.

Results

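The genes described here encode the nuclear-encoded subunits of the mitochondrial respiratory chain and of ATP synthase. They were chosen by symbol (Nduf, Sdh, Uqcr, Cyc1, Cox4 to Cox8 and Atp5 names), which gave 85 of the 16516 genes in the deposited table. Of these, 37 were assigned to complex I, 4 to complex II, 9 to complex III, 18 to complex IV and 17 to complex V. Ndufa4 and its paralog Ndufa4l2 were placed with complex IV, since the NDUFA4 protein is now counted as a subunit of that complex. A filter on low counts left 82 of the 85 genes for testing, and the other 3 were tissue isoforms of complex IV.

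Complexes I and II take electrons from NADH and succinate and pass them to coenzyme Q, complex III passes them on to cytochrome c, and complex IV hands them to oxygen. Complexes I, III and IV pump protons, and complex V (ATP synthase) uses the proton gradient to make ATP. Complex II is built from nuclear genes only, whereas the other complexes also hold subunits made from mitochondrial DNA. Macrophages and microglia exposed to bacterial lipopolysaccharide (LPS) are known to shift between oxidative phosphorylation and glycolysis, which is why these genes are of interest in this experiment.

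RNA-seq was performed on CD11b+ cells from the cortex of 4LPS mice and NS mice at D7, with 3 samples per group. 4LPS mice were male C57BL6/J mice aged 8 to 10 weeks that received LPS from Escherichia coli 055:B5 intraperitoneally at 500 µg/kg once daily on 4 days, and NS mice were the same in strain, sex and age and received normal saline instead. D7 is 7 days after the first injection, and each sample held the pooled cells of 2 mice, selected with magnetic beads against CD11b. The methods do not say in words whether any mouse contributed to more than 1 sample. No mitochondrially encoded gene is in the table, so the subunits made in the mitochondrion were not analysed here.

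The sample titles name CD11b+ cells, and the paper calls them microglia. Of 8 microglial markers, Aif1 was higher, P2ry12 was lower and 6 did not pass, and their summed level was 41507 to 41997 CPM in 4LPS and 41587 to 44270 CPM in NS, where CPM is the count scaled to a common library size after TMM normalization. Other cells were present as well. The 6 NK cell markers summed to 86.3 to 97.8 CPM in 4LPS, against 4.21 to 8.68 CPM in NS, and all 6 passed the test as higher. The 7 choroid plexus markers summed to 18.0 to 3330 CPM in 4LPS, against 1057 to 10022 CPM in NS, and none of the 7 passed the test in either direction. Of 5 astrocyte markers 3 were lower, and of 4 endothelial markers 1 was lower. In such bulk samples, fewer cells of a type and less RNA per cell cannot be told apart. Total counts were 15164123 to 15462396 in 4LPS and 15158342 to 15746606 in NS. The mean count of a subunit gene over the 6 samples ran from 13.2 for Cox6a2 to 5582 for Atp5b, with a median of 476.

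Of the 82 subunit genes tested, 4 were higher in 4LPS than in NS, none was lower and 78 did not pass (edgeR's quasi-likelihood test, adjusted p under 0.05). The 4 were Cox7a2l, Uqcrh, Atp5g2 and Ndufa6, 1 each from complexes IV, III, V and I. They make up 4.88% of the subunit genes, whereas 9.95% of all 13151 genes tested were higher and 6.43% were lower. Below the threshold, 13 of the 78 genes had an unadjusted p under 0.05 (edgeR), 3 of them with a positive and 10 with a negative log2 fold change. The share of all genes under that cut was not counted. DESeq2 called 5 subunit genes higher (5.88%) and 2 lower (2.35%). Over all genes it called 10.2% higher and 6.73% lower. The log2 fold change of 4LPS over NS was positive for 20 and negative for 62 of the 82 genes. Over all 13151 genes tested, 6217 were positive and 6934 negative. The median log2 fold change of the subunit genes was −0.10, beside −0.02 over all genes tested.

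The count of lower genes depended on the settings. Without NS replicate 3, 83 subunit genes were tested, now with Cox8b, of which 4 were higher (4.82%) and 9 lower (10.8%), beside 12.2% higher and 9.12% lower over all genes in that fit. When library totals alone were used for scaling, 4 were higher (4.88%) and 10 lower (12.2%), while over all genes 906 were then higher (6.89%) and 1711 lower (13%), beside 1308 and 845 with TMM. In both fits the share of lower subunit genes was near that of all genes. With a correction for gene length, 3 were higher (3.66%) and 15 lower (18.3%), beside 15.1% higher and 5.95% lower over all genes.

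For most of the genes that did not pass, the 95% interval of the change was narrow. It lay within 1.5-fold in either direction for 60 of the 78 genes and within 2-fold for 73, and its median half-width was 0.25 on the log2 scale. Every 4LPS sample lay above every NS sample for 7 of the 82 genes and below it for 7, and the groups overlapped for 68. Over all genes tested, 19.9% had every 4LPS sample above and 17.5% had every 4LPS sample below.

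**Figure D1:**
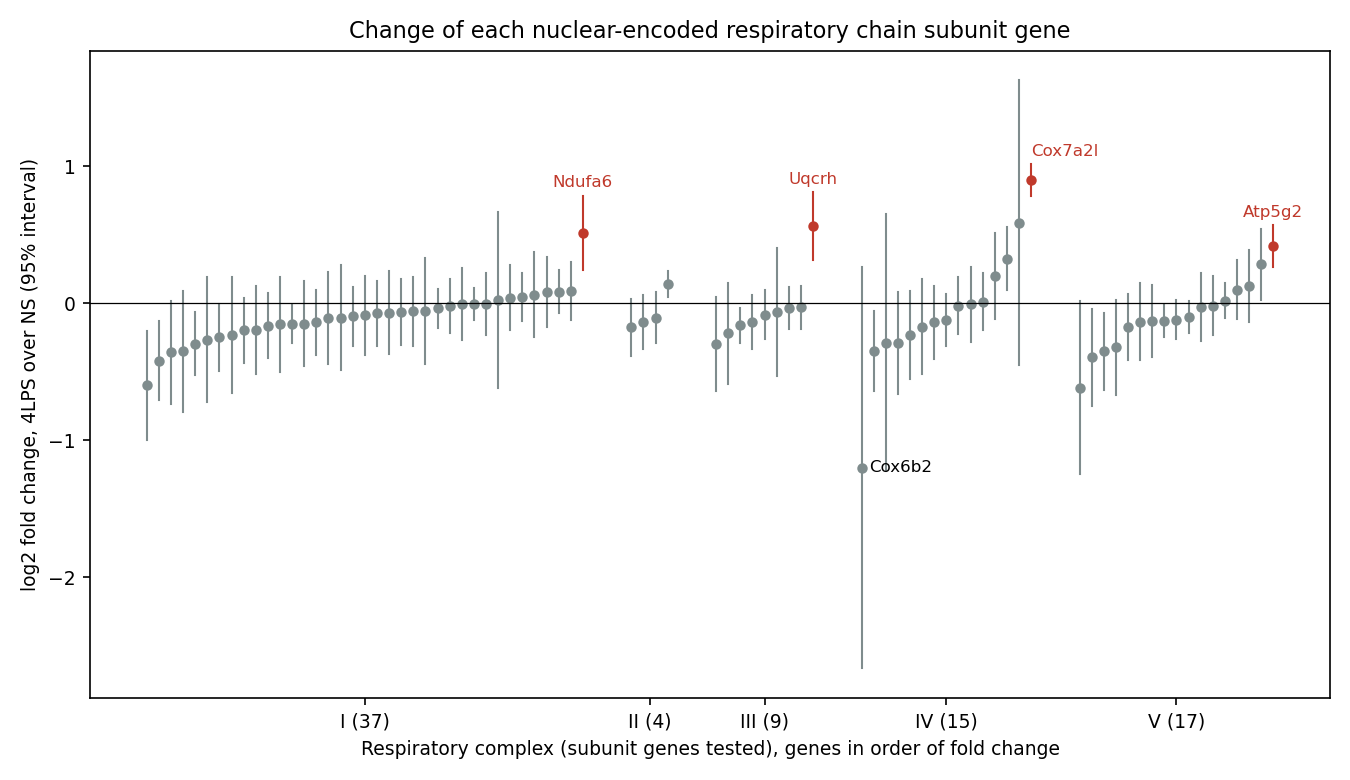
Log2 fold change of 4LPS over NS for the 82 subunit genes tested, grouped by respiratory complex and ordered by size, with vertical lines for the 95% interval from edgeR. Red points are the 4 genes that passed an adjusted p of 0.05, and most other points sit slightly below 0, with a median of −0.10.

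The promoters of the 4 genes that were higher are shown to set the sequence around each start site beside its change, from 150 bases before the start site to 25 bases from it onward, as RefSeq gives them for GRCm38.p6 on the strand of the gene. Capitals mark matches to motifs searched on both strands, which were GCGC, any base and TGCGC for NRF1, GCCATNTTG for YY1 and CCGGAAG for ETS factors such as GABP. Capitals also mark a run of pyrimidines at the start site, searched on the gene's strand as a C followed by at least 6 further C or T between 10 bases before and 15 bases after the start. The stretches are chr17:83514309-83514483 for Cox7a2l, chr4:116075046-116075220 for Uqcrh, chr15:102671023-102671197 for Atp5g2 and chr15:82354267-82354441 for Ndufa6, all on the minus strand.
Cox7a2l: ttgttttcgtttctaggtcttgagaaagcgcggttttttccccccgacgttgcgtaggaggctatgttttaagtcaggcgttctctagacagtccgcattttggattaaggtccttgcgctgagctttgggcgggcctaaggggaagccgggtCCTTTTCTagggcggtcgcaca
Uqcrh: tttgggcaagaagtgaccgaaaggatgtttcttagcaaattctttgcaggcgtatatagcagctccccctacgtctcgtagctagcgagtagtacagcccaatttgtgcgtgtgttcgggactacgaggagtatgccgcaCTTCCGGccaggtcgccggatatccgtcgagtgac
Atp5g2: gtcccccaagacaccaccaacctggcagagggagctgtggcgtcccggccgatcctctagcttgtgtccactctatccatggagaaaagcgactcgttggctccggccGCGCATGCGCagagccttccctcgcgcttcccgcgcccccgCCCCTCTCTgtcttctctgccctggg
Ndufa6: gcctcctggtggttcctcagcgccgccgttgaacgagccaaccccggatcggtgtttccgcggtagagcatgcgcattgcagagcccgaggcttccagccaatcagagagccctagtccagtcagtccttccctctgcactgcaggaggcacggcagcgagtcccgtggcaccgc

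NRF1 and GABP are known activators of nuclear respiratory chain genes, and a pyrimidine run at the start site is typical of ribosomal protein mRNAs. The pyrimidine run was found for Cox7a2l at +4 to +11 and for Atp5g2 at −1 to +8. Atp5g2 also held the NRF1 letters at −42 to −33, and Uqcrh held the ETS letters at −10 to −4 on the other strand. Ndufa6 had its only match, to the NRF1 letters, at +24 to +33, which runs past the stretch printed. The 4 genes thus shared no single motif.

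Promoters were found for 68 of the 85 subunit genes. The NRF1 letters stood in 17 of them (25%), beside 5.19% of 27025 mouse promoters of the same 300 bases, the YY1 letters in 11 (16.2%), beside 2.9%, and the ETS letters in 17 (25%), beside 9.93%. The pyrimidine run stood in 9 (13.2%), the same share as over all promoters (13.2%), and in 31 of 64 cytosolic ribosomal protein promoters (48.4%). In those 64 promoters the NRF1 letters stood in 6 (9.38%), the YY1 letters in 5 (7.81%) and the ETS letters in 26 (40.6%). These are matches of letters and were not tested as binding sites.

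Cox7a2l, whose product (SCAF1) joins complexes III and IV into supercomplexes, had the largest change among the 4 genes that passed and the smallest adjusted p of the subunit genes. It measured 198, 195 and 207 CPM in the 4LPS samples, against 102, 110.5 and 109 CPM in the NS samples. Every 4LPS sample stood far above every NS sample, and the spread within each group was small. The means were 200.05 ± 6.46 CPM in 4LPS and 107 ± 4.51 CPM in NS (SD, n = 3 each), a log2 fold change of 0.90 with a standard error of 0.05 (95% interval 0.78 to 1.02, edgeR adjusted p = 4.3e-05), or 1.86-fold. The call held in all 18 fits tried. The gene lies on chromosome 17, from 83765970 to 83824759 on the minus strand of GRCm39, with 3 exons in the GENCODE transcript used. C57BL/6J mice are known to carry a shortened allele of Cox7a2l, and these data give its mRNA level only.

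Cox7a2l is a paralog of Cox7a2, the common subunit 7a of complex IV, which measured 27.4, 20.7 and 23.1 CPM in 4LPS, against 31.2, 27.1 and 21.9 CPM in NS, and whose groups overlapped. In FPKM, a level per gene length, Cox7a2l made up 81.0%, 84.9% and 83.9% of the sum of both in 4LPS, against 66.0%, 70.8% and 74.6% in NS, without overlap. The difference of 12.8 percentage points had a two-sided exact permutation p of 0.1, which is the smallest that 3 against 3 samples allow.

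Complex I, the NADH dehydrogenase, had 37 genes, of which 1 was higher and none lower (median log2 fold change −0.09). Ndufa6, an accessory subunit of the LYR family that binds the mitochondrial acyl carrier protein, was the gene that passed. It measured 43.04, 33.04 and 37.1 CPM in 4LPS, against 27.9, 28.04 and 23.3 CPM in NS. The groups did not overlap, though 4LPS replicate 2 came near the highest NS sample. The log2 fold change was 0.51 with a standard error of 0.12 (edgeR adjusted p = 0.0241). The call was lost without 4LPS replicate 1 (edgeR adjusted p = 0.0699), without 4LPS replicate 3 (0.0742), without NS replicate 1 (0.0577) and with a correction for gene length (0.0826). Ndufa6 lies on chromosome 15, from 82234340 to 82238523 on the minus strand of GRCm39, with 3 exons.

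Among the other accessory subunits, Ndufb4 and Ndufb2 of the membrane arm came closest to the threshold. Ndufb4 measured 8.77, 7.89 and 5.63 CPM in 4LPS, against 10.4, 12.1 and 11.2 CPM in NS, a log2 fold change of −0.60 with a standard error of 0.17 (edgeR adjusted p = 0.0521). All 4LPS samples were below all NS samples, and several alternatives moved the adjusted p across the threshold, the lowest being 0.00817 with a correction for gene length. Ndufb4 and its near copy Ndufb4c were the only 2 of the 85 genes with counts that were not whole. Reads that match both are divided by RSEM, and each of the 2 is uncertain on its own. The sum of both measured 15.4, 14.8 and 13.6 CPM in 4LPS, against 17.6, 18.9 and 18.0 CPM in NS, a log2 fold change of −0.31 with a standard error of 0.09 (edgeR adjusted p = 0.0524). Ndufb2 measured 7.29, 6.59 and 8.14 CPM in 4LPS, against 9.82, 9.62 and 10.04 CPM in NS, without overlap (log2 fold change −0.42, edgeR adjusted p = 0.0553).

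The 7 genes of the catalytic core, which carry the flavin and the iron-sulfur clusters from NADH to coenzyme Q, had a median log2 fold change of −0.04, and none passed. Ndufs1, the largest of the iron-sulfur subunits, measured 68.0, 65.4 and 68.0 CPM in 4LPS, against 68.5, 65.5 and 68.3 CPM in NS. Those values were nearly the same in all 6 samples, with a log2 fold change of −0.01 and a 95% interval of −0.12 to 0.11. Ndufv2, an iron-sulfur subunit of the NADH-binding module, measured 25.4, 24.0 and 22.2 CPM in 4LPS, against 31.6, 30.3 and 26.0 CPM in NS. The Ndufv2 samples did not overlap, with a log2 fold change of −0.30 that missed the threshold (edgeR adjusted p = 0.0782) and passed it without NS replicate 3 (0.0238).

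The other complex I genes that came nearest to the threshold also missed it. Ndufa9, a subunit near the coenzyme Q site, had a log2 fold change of −0.15 and no overlap (edgeR adjusted p = 0.117), and Ndufs8, a core iron-sulfur subunit, had −0.25 with overlap (0.144). On the positive side, Ndufa2 had 0.09, Ndufb11 0.08 and Ndufa10 0.05, each with overlapping groups. Per gene length, complex I genes ran from Ndufa3, with 151 ± 7.87 FPKM in 4LPS and 165 ± 28.5 FPKM in NS (SD, n = 3 each), to Ndufa11, with 4.98 ± 0.68 FPKM in 4LPS and 6.84 ± 1.24 FPKM in NS. FPKM depends strongly on the length the authors' tool assigned, which was 84.1 nucleotides for Ndufa3 and 2381 for Ndufa11. In CPM, Ndufa11 was at 12.3 in 4LPS and 15.7 in NS, above Ndufc1 at 4.29 in 4LPS and 4.22 in NS. The order of levels per length is therefore uncertain, for short genes above all.

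Complex II, succinate dehydrogenase, is also an enzyme of the citric acid cycle. None of its 4 genes passed in either direction (median log2 fold change −0.12). Sdha, the flavoprotein that oxidizes succinate, measured 238, 233 and 232 CPM in 4LPS, against 208, 220 and 209 CPM in NS. The samples of Sdha did not overlap, yet the difference was small, with a log2 fold change of 0.14, a standard error of 0.04 and an edgeR adjusted p of 0.0603. With a correction for gene length the adjusted p was 0.0399. Sdhb, the iron-sulfur protein, had a log2 fold change of −0.10, and the membrane anchors Sdhc and Sdhd had −0.18 and −0.14. All 3 had overlapping groups. Per length, Sdha was the highest of the 4 at 87.8 ± 1.86 FPKM in 4LPS and 85.2 ± 2.17 FPKM in NS, and Sdhd was the lowest at 41.0 ± 3.37 FPKM in 4LPS and 48.0 ± 4.10 FPKM in NS.

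Complex III, the cytochrome bc1 complex, had 9 genes, of which 1 was higher and none lower (median log2 fold change −0.08). Uqcrh, the hinge protein next to cytochrome c1, was the gene that passed. It measured 55.9, 52.3 and 52.1 CPM in 4LPS, against 32.2, 42.5 and 33.7 CPM in NS, and the groups did not overlap. The log2 fold change was 0.56 with a standard error of 0.11 (edgeR adjusted p = 0.0111). The length-corrected fit gave 0.34 and an adjusted p of 0.0506 (edgeR). Uqcrh lies on chromosome 4, from 115923314 to 115932296 on the minus strand of GRCm39, with 4 exons. It was also the highest gene of the complex per length, at 198 ± 11.1 FPKM in 4LPS and 140 ± 19.0 FPKM in NS.

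The other 8 genes of complex III all had negative log2 fold changes and none passed. Uqcrc2, a core protein, measured 88.1, 80.2 and 81.0 CPM in 4LPS, against 92.0, 95.5 and 91.6 CPM in NS, without overlap (log2 fold change −0.16, edgeR adjusted p = 0.0832). The small subunit Uqcr10 had −0.30, Cyc1 (cytochrome c1) had −0.14, and the small subunits Uqcrq and Uqcrb had −0.22 and −0.08. Uqcrfs1, the Rieske iron-sulfur protein, had −0.03. Groups overlapped for each of these 5 genes.

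Complex IV, cytochrome c oxidase, had 18 genes, of which 15 were tested. Cox7a2l was the 1 that passed, and the median log2 fold change was −0.12. Cox4i1, the common isoform of the regulatory subunit 4, measured 172, 146 and 162 CPM in 4LPS, against 136, 137 and 109 CPM in NS. All 4LPS samples were above all NS samples, with a log2 fold change of 0.32 that did not pass in edgeR (adjusted p = 0.0600) and passed in DESeq2 (adjusted p = 0.00839). Ndufa4 measured 30.7, 25.9 and 27.7 CPM in 4LPS, against 37.95, 40.2 and 29.3 CPM in NS, where only NS replicate 3 lay among the 4LPS samples (log2 fold change −0.35, edgeR adjusted p = 0.0995). Cox7b, Cox6c and Cox7c, small membrane subunits, had −0.29, −0.23 and −0.12, whereas Cox8a and Cox6b1 had 0.20 and 0.01, all with overlap.

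The tissue isoforms of complex IV were near the limit of detection. Cox4i2, known from lung and other oxygen-sensing cells, had 5, 3 and 5 counts in 4LPS, against 13, 5 and 12 in NS, and was not tested. Cox7a1, a heart and muscle isoform, had 2, 1 and 0 counts in 4LPS, against 15, 7 and 3 in NS. Cox8b, also a muscle isoform, had 6, 0 and 3 counts in 4LPS, against 24, 38 and 0 in NS, and it passed the filter and the test as lower without NS replicate 3. The counts of Cox7a1 and Cox8b were highest in NS replicates 1 and 2, the samples with the most choroid plexus marker RNA, and the part of those cells in these counts was not tested. Cox6b2, a testis isoform, had a log2 fold change of −1.20 with a standard error of 0.63 (edgeR adjusted p = 0.219), Cox6a2 had 0.59 and Ndufa4l2 had −0.29, none of which passed. Ndufa4l2 was the lowest gene tested of the complex at 1.58 ± 0.74 FPKM in 4LPS and 2.05 ± 0.62 FPKM in NS, and Cox4i1 the highest at 338 ± 32.8 FPKM in 4LPS and 286 ± 34.6 FPKM in NS.

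**Figure D2:**
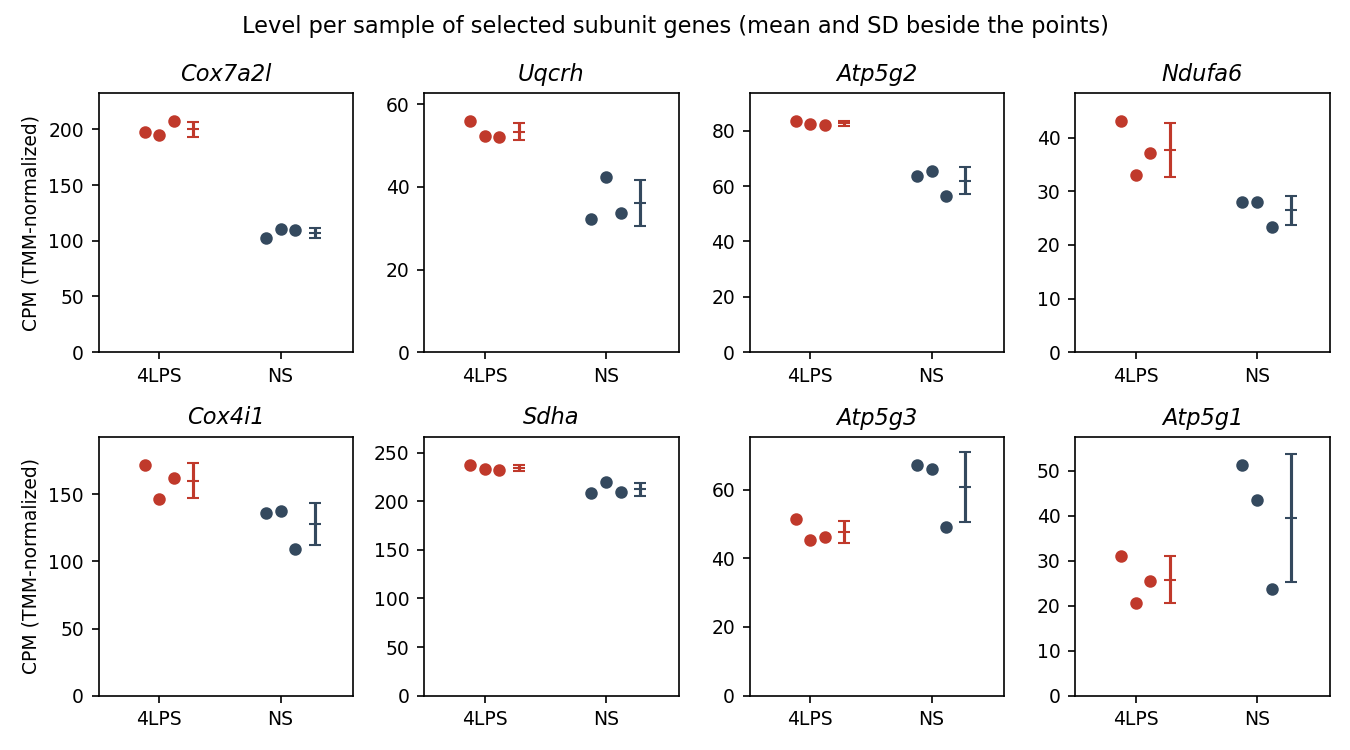
Level in CPM of 8 subunit genes in each sample, with 4LPS at the left and NS at the right of each panel, and the mean with its SD beside the points. The points of 4LPS all lie above those of NS for Cox7a2l, Uqcrh, Atp5g2, Ndufa6, Cox4i1 and Sdha, and the groups overlap for Atp5g3 and Atp5g1, where NS replicate 3 is the lowest NS point.

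Complex V, ATP synthase, had 17 genes, of which 1 was higher and none lower (median log2 fold change −0.12). Atp5g2, 1 of 3 genes for the c subunit whose ring turns with the proton flow, was the gene that passed. It measured 83.4, 82.5 and 82.0 CPM in 4LPS, against 63.8, 65.5 and 56.4 CPM in NS, without overlap. The log2 fold change was 0.42 with a standard error of 0.07 (edgeR adjusted p = 0.00536), and the call held in all 18 fits. Atp5g2 (Atp5mc2 in GENCODE) lies on chromosome 15, from 102571295 to 102580787 on the minus strand of GRCm39, with 5 exons.

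The 3 c-subunit genes encode the same mature protein with different targeting peptides. The log2 fold changes of the other 2 were negative. Atp5g3 measured 51.3, 45.3 and 46.2 CPM in 4LPS, against 67.2, 65.8 and 49.1 CPM in NS, with NS replicate 3 below the highest 4LPS sample (log2 fold change −0.35, edgeR adjusted p = 0.0874), and it passed as lower in DESeq2 (adjusted p = 0.0422) and without NS replicate 3 (edgeR adjusted p = 0.00453). Atp5g1 measured 31.0, 20.6 and 25.6 CPM in 4LPS, against 51.4, 43.4 and 23.6 CPM in NS. NS replicate 3 lay among the 4LPS samples for Atp5g1, whose log2 fold change of −0.62 did not pass (edgeR adjusted p = 0.157) and was −0.88 without that sample (edgeR adjusted p = 0.00950), −0.38 without NS replicate 1 (0.414) and −0.18 with the choroid plexus covariate (0.672). With that covariate Atp5g3 was at −0.20 (edgeR adjusted p = 0.366).

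As a share of the summed FPKM of the 3 genes, Atp5g2 made up 56.3%, 61.0% and 59.4% in 4LPS, against 40.9%, 43.3% and 49.5% in NS. The means were 58.9% ± 2.41 in 4LPS and 44.6% ± 4.46 in NS (SD, n = 3 each), a difference of 14.3 percentage points with a two-sided exact permutation p of 0.1. Atp5g3 made up 28.3% ± 0.64 in 4LPS and 36.2% ± 0.28 in NS (exact permutation p = 0.1), and Atp5g1 12.8% ± 1.94 in 4LPS and 19.2% ± 4.35 in NS (exact permutation p = 0.2). The first 2 shares had no overlap between groups, and no smaller p than 0.1 is possible with these samples. The promoters of the other 2 c-subunit genes, from the same RefSeq table and cut in the same way, are shown for comparison with that of Atp5g2. They are chr2:73911302-73911476 for Atp5g3 and chr11:96075607-96075781 for Atp5g1 in GRCm38.p6, on the minus strand.
Atp5g3: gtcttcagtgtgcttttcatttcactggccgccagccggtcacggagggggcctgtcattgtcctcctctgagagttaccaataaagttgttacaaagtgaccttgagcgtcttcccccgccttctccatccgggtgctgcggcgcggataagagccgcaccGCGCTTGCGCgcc
Atp5g1: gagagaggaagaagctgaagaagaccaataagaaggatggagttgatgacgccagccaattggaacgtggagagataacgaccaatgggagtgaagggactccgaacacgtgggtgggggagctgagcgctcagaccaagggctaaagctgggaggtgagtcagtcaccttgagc

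The NRF1 letters stood in the promoters of Atp5g2 and of Atp5g3, in Atp5g3 downstream of the start site at +13 to +22, and none of the searched motifs was found for Atp5g1. The pyrimidine run was found in Atp5g2 only among these 3.

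**Figure D3:**
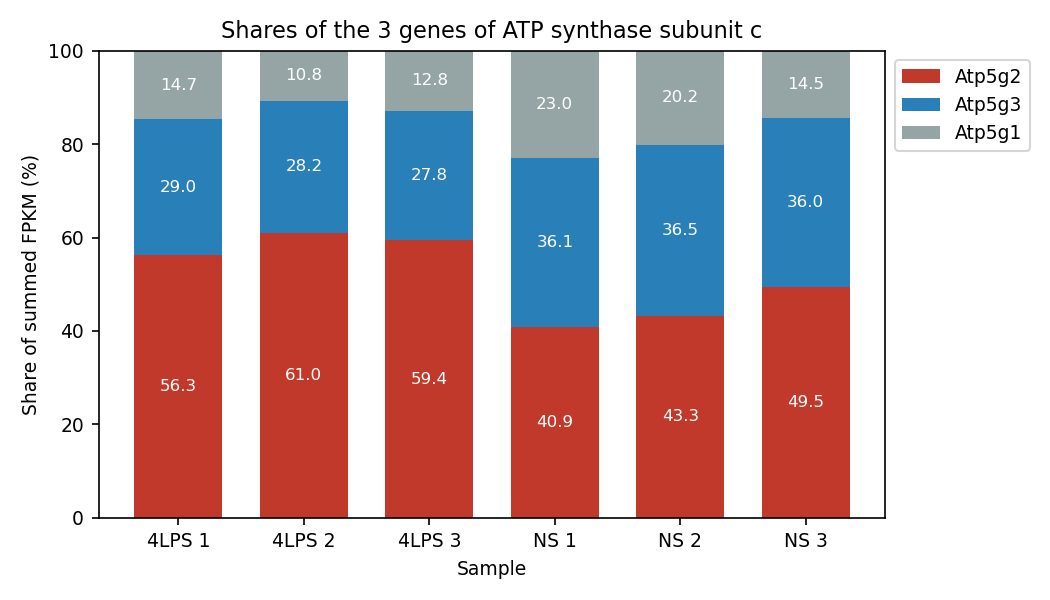
Share of the summed FPKM of the 3 genes for ATP synthase subunit c in each sample, with the 4LPS samples at the left. Atp5g2 takes 56.3% to 61.0% in 4LPS, against 40.9% to 49.5% in NS.

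The other genes of complex V did not pass. Of the F1 head and central stalk, Atp5b, the catalytic beta subunit, was the most abundant gene of the complex per length at 211 ± 10.2 FPKM in 4LPS and 245 ± 17.1 FPKM in NS, with overlapping CPM. Atp5a1, the alpha subunit, had a log2 fold change of −0.10 and Atp5c1, the gamma subunit of the stalk, 0.02. Atp5e, the epsilon subunit, had 0.28 with all 4LPS samples above all NS samples (edgeR adjusted p = 0.125), and −0.11 with the length correction. Atp5d, the delta subunit, had 0.10 with overlap. In the peripheral stalk, Atp5pb, subunit b, had −0.13 without overlap (edgeR adjusted p = 0.124). Of the small membrane subunits, Atp5k had −0.39 without overlap (edgeR adjusted p = 0.116), Atp5md −0.32 and Atp5mpl 0.13, both with overlap. Atp5g1 was the lowest gene of the complex per length, at 48.5 ± 10.2 FPKM in 4LPS and 78.4 ± 28.3 FPKM in NS.

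Summed over all members in TMM-normalized CPM, the subunit mRNAs had nearly the same mean in both groups. The sum was 3996, 3708 and 3879 CPM in 4LPS, against 4064, 4063 and 3521 CPM in NS, a ratio of 0.994. NS replicate 3 was the lowest and the other NS samples the highest of the 6. As a share of library counts, without TMM, the sum was 0.3896%, 0.3597% and 0.37% in 4LPS, against 0.426%, 0.4179% and 0.3608% in NS. Summed FPKM was 7684, 6785 and 7586 in 4LPS, against 8450, 8101 and 6910 in NS. In both measures NS replicates 1 and 2 were above every 4LPS sample, and NS replicate 3 lay among the 4LPS samples. By complex the ratio in TMM-normalized CPM was 0.957 for complex I, 1.02 for complex II, 0.977 for complex III, 1.17 for complex IV and 0.946 for complex V. In TMM-normalized CPM, complex IV was the 1 complex with no overlap, at 755, 687 and 737 in 4LPS, against 664, 664 and 541 in NS. As a share of library counts, without TMM, complex IV overlapped. It was at 0.07364%, 0.06662% and 0.07032% in 4LPS, against 0.06964%, 0.06835% and 0.05542% in NS. Its summed FPKM overlapped as well. In TMM-normalized CPM, Cox7a2l made up 92.7 of the 103 CPM between the group means. Without it the complex IV sums overlapped, at 558, 492 and 530 CPM in 4LPS, against 562, 554 and 432 CPM in NS (ratio 1.02), and 10 of the 15 genes tested had negative log2 fold changes. These sums are a description of chosen genes and carry no p.

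NS replicate 3 stood apart for these genes. It was the lowest NS sample for 64 of the 82 genes (78%), beside 32.7% of all genes tested, and 4LPS replicate 1 was the highest 4LPS sample for 48 (58.5%), beside 32.8%. The 7 choroid plexus markers summed to 3330, 18.0 and 860 CPM in 4LPS replicates 1 to 3, against 10022, 8414 and 1057 CPM in NS replicates 1 to 3. The sample with the lowest subunit sum within each group was also the one with the least choroid plexus marker RNA, and in 4LPS replicate 2 Kcnj13 was at 0 counts. Other markers set the same samples apart. Neutrophil markers summed to 647, 260.4 and 396 CPM in 4LPS replicates 1 to 3, against 104, 103 and 411 CPM in NS replicates 1 to 3. NS replicate 3 was also the highest NS sample for endothelial (458 CPM, beside 285 and 226), oligodendrocyte (383 CPM, beside 235 and 212), monocyte (50.4 CPM, beside 30.8 and 23.6) and border macrophage markers (278 CPM, beside 195 and 209.9), and 4LPS replicate 2 was the lowest 4LPS sample for border macrophage markers (155 CPM, beside 363 and 233). The part of any of these cells in the subunit levels was not tested beyond 1 fit. With the log2 summed level of the choroid plexus markers as a covariate in edgeR, the median log2 fold change of the subunit genes was 0.0076, and 5 genes were higher (the same 4 and Cox4i1) and none lower (6.1% and 0%). Over all genes that fit called fewer, 832 higher (6.33%) and 431 lower (3.28%).

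**Figure D4:**
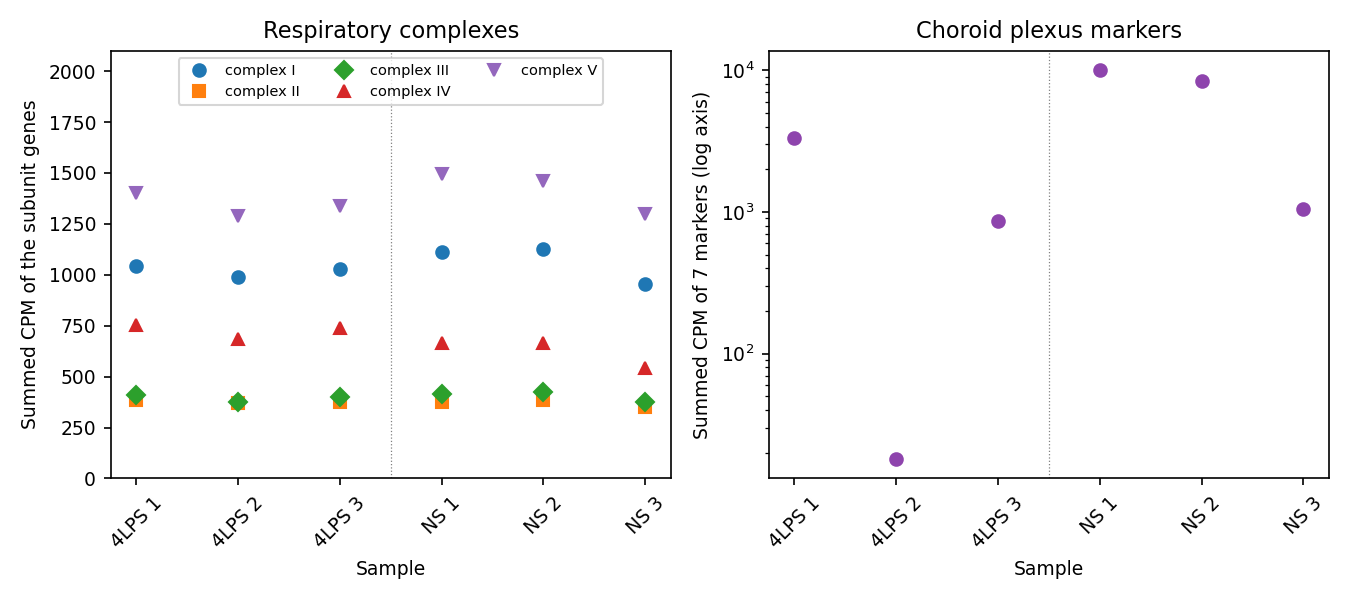
Summed CPM of the subunit genes of each complex per sample (left) and summed CPM of the 7 choroid plexus markers on a log axis (right), with the 4LPS samples left of the NS samples. The complex sums vary little, and the marker sum spans 18.0 to 10022 CPM. Complex IV is higher in every 4LPS sample only with TMM normalization and with Cox7a2l included. Without Cox7a2l it is at 492 to 558 CPM in 4LPS and 432 to 562 CPM in NS.

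The length derived from the counts and FPKM was a scaling length, not the full mRNA length, and was 60.2 nucleotides for Atp5k. By that length, 49 of the 82 subunit genes were under 500 nucleotides. Among other genes of that length, 20.7% were higher in 4LPS and 1.1% lower, with a median log2 fold change of 0.11, beside 3 higher, none lower and a median of −0.09 for the 49 subunit genes. Those other genes include the cytosolic ribosomal protein genes under that length. Of all 83 cytosolic ribosomal protein genes tested (median derived length 444 nucleotides), 80 were higher. The shares and the median of the other short genes without them were not computed. When the length correction was fitted without those ribosomal genes, a setting added after the data were seen, 5 subunit genes were higher (6.1%) and 9 lower (11%). Over all genes 15.2% were higher and 5.69% lower in that fit. Among the subunit genes themselves the log2 fold change did not follow length (across the 82 genes, Pearson r = 0.04 and Spearman rho = −0.02, as a description, since the genes share their libraries).

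The genes that build, feed and regulate these complexes were read from the same fit. In that fit, over all genes tested, 9.95% were higher and 6.43% lower. The calls of these related genes were not followed through the alternative settings. Assembly factors passed in 1 case. None of 17 genes for complex I assembly, 4 for complex II, 6 for complex III and 5 for ATP synthase passed, and of 26 genes for complex IV assembly only Coa5 was higher, at 112 ± 4.27 CPM in 4LPS and 87.2 ± 4.36 CPM in NS (log2 fold change 0.37, edgeR adjusted p = 0.00494). Of 13 genes for coenzyme Q synthesis, Coq8a, a kinase-like protein of that pathway, was higher, at 16.4 ± 1.18 CPM in 4LPS and 12.4 ± 0.86 CPM in NS (log2 fold change 0.41, edgeR adjusted p = 0.0323).

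Of 13 further genes of oxidative phosphorylation outside the name patterns, 1 was higher and 2 were lower. Slc25a3, the mitochondrial phosphate carrier that supplies ATP synthase, was higher, at 185 ± 5.62 CPM in 4LPS and 157 ± 2.89 CPM in NS (log2 fold change 0.23, edgeR adjusted p = 0.0118). Cycs, the cytochrome c that links complexes III and IV, was lower, at 40.1 ± 2.16 CPM in 4LPS and 49.2 ± 3.81 CPM in NS (log2 fold change −0.29, edgeR adjusted p = 0.0376). Ndufab1, the acyl carrier protein that is part of complex I and binds Ndufa6, was lower, at 23.8 ± 1.42 CPM in 4LPS and 29.9 ± 1.83 CPM in NS (log2 fold change −0.33, edgeR adjusted p = 0.0355).

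Of 25 genes of the citric acid cycle and pyruvate dehydrogenase, Mpc1, a subunit of the mitochondrial pyruvate carrier, was the 1 that was lower, at 48.4 ± 2.91 CPM in 4LPS and 57.9 ± 1.63 CPM in NS (log2 fold change −0.26, edgeR adjusted p = 0.0290), and none was higher. Among 20 regulators of nuclear respiratory genes and of mitochondrial DNA, 3 were higher and none lower. The log2 fold change was positive for 14 and negative for 6 of the 20. Ppargc1b, the coactivator PGC-1beta, measured 8.13 ± 0.84 CPM in 4LPS and 4.05 ± 0.41 CPM in NS (log2 fold change 1.00, edgeR adjusted p = 0.00522). Ppargc1a, a related coactivator, had a mean of 1.51 CPM in 4LPS and 3.58 CPM in NS, with overlapping groups. Its log2 fold change of −1.24 had a standard error of 0.68 and did not pass (edgeR adjusted p = 0.236). Polg, the mitochondrial DNA polymerase, was at 120.05 ± 2.91 CPM in 4LPS and 97.7 ± 3.76 CPM in NS (log2 fold change 0.30, edgeR adjusted p = 0.00704), and Hif1a, a hypoxia-induced transcription factor, at 227 ± 17.4 CPM in 4LPS and 177 ± 16.3 CPM in NS (log2 fold change 0.36, edgeR adjusted p = 0.0221). Nrf1, Gabpa and Tfam, activators of these genes and of mitochondrial transcription, had log2 fold changes of 0.03, 0.06 and 0.01 with overlapping groups.

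Of 29 genes of mitochondrial protein import, Timm44 was higher, at 45.9 ± 1.801 CPM in 4LPS and 38.4 ± 2.41 CPM in NS (log2 fold change 0.26, edgeR adjusted p = 0.0410). Of 78 mitochondrial ribosomal protein genes, which make the mitochondrially encoded subunits, none was higher and Mrpl49 and Mrps11 were lower (log2 fold changes −0.38 and −0.43, edgeR adjusted p = 0.0181 and 0.0361), with a median of −0.08. The 83 cytosolic ribosomal protein genes had a median of 0.95.

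**Figure D5:**
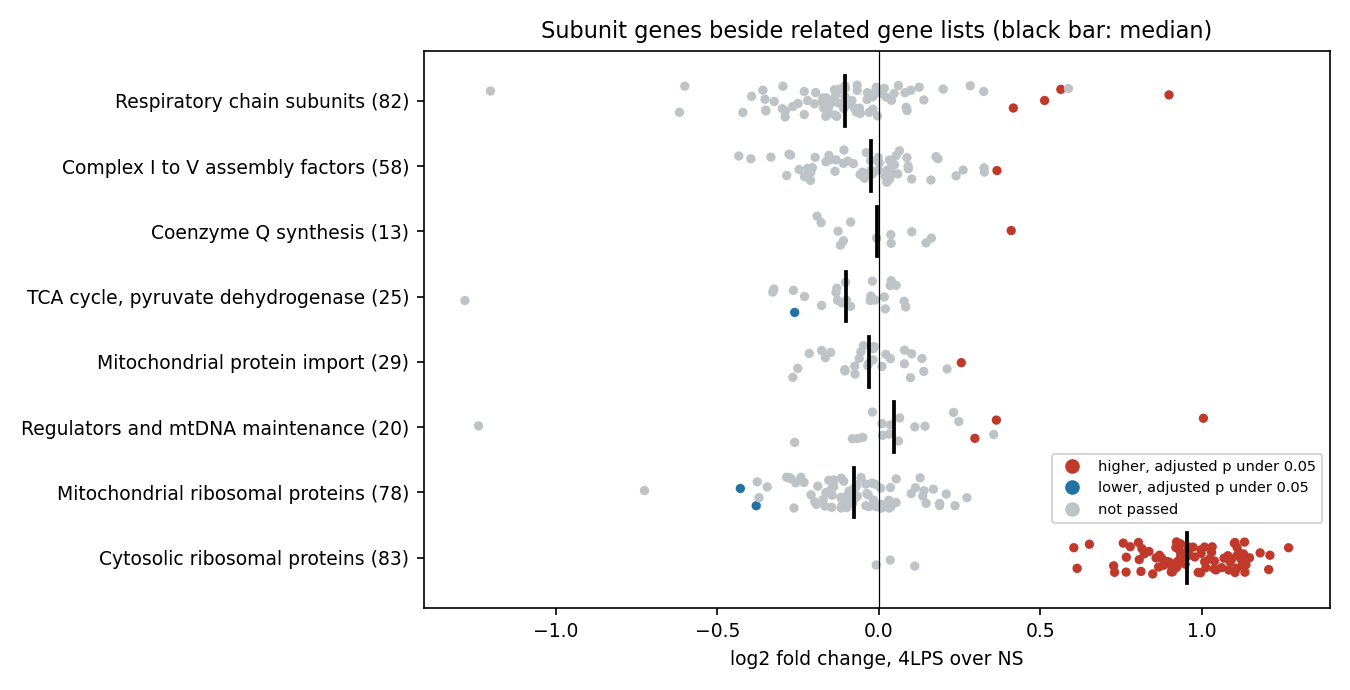
Log2 fold change of 4LPS over NS for the subunit genes and for 7 related gene lists, with 1 point per gene tested (number in brackets) and a black bar for the median. The subunit genes and most related lists centre near 0, with a subunit median of −0.10, and the cytosolic ribosomal protein genes centre at 0.95.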

How the data were processed

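RNA-seq was performed on CD11b+ cells of cortex from 3 4LPS and 3 NS samples, each pooled from 2 mice. The labels gave the group and the replicate number of each sample. Per the labels and the methods, the authors mapped reads with HISAT2 2.0.4 and Bowtie2 2.2.5, estimated expression with RSEM 1.2.8, and used DESeq2 1.16.1. The methods name the build mm39, the processing notes also mm10, and the sources used here do not give the gene annotation. As files, the authors deposited expected counts, of which 2.77% were not whole, FPKM values (scaled for gene length and library total), TPM values and a normalized signal (counts divided by size factors). TPM, the normalized signal and the authors' group means were not used.

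Expected counts were rounded and tested in R 4.3.3 with edgeR 4.0.16 (TMM, filterByExpr, quasi-likelihood F-test, Benjamini-Hochberg over 13151 genes, threshold 0.05). Standard errors and 95% intervals are on the log2 scale of 4LPS over NS. FPKM were used for levels per length and isoform shares. Single values were compared by an exact two-sided permutation test, whose smallest p for 3 against 3 is 0.1. Gene length was derived from counts and FPKM, and is the length the authors' tool assigned, which can be shorter than the mRNA. Samples within a group were compared for duplicates, and the mean chi-square per gene was 5.94 or more (near 1 for sampling noise alone). The scripts were tested on simulated data.

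The subunit genes, lists and markers were chosen with earlier results of these data known. Named by rule were, in each complex, in each direction the 5 genes at most that had the lowest adjusted p, all of complex II, the highest and lowest by FPKM, tissue isoforms and genes not tested, and 3 genes at most per direction of each related list. Ndufs1, Uqcrfs1, Cox7a2, Atp5a1, Atp5b, Nrf1, Gabpa and Tfam were named in addition for their role, after their values were seen, and not every gene meeting the rule is reported here. Alternatives were RLE factors, no composition factor, no count filter, a minimum of 50 counts in 3 samples, DESeq2 1.42.0, voom of limma 3.58.1, a replicate block, a loess length correction, both together, a choroid plexus covariate and leaving out each sample. The length correction fitted without ribosomal protein genes, and Ndufb4 with Ndufb4c as 1 gene, were added after seeing the data. Coordinates are from GENCODE on GRCm39, matched by symbol or RefSeq synonym for 82 of 85 genes.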

Additional observations from a re-analysis of the deposited data

How the results depend on the processing

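Cox7a2l and Atp5g2 were higher in all 18 fits. Of 45 subunit genes tested that the naming rule gives, 21 kept their side of the threshold in every alternative run, which was 17 for 42 genes and fewer for Cox6a2, Cox6b2 and Ndufa4l2. Their direction turned for 8 genes with no composition factor, for 7 with the length correction, with or without the replicate block, and for at most 4 in any other setting. The causes of the differences between settings were not tested. The depth limited the rare tissue isoforms, 3 of which were below the count filter with all samples.

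The number of subunit genes that were higher (4) was 3 to 5 under the alternatives, or 3.57% to 6.1% of those tested. Over all genes the share was 5.89% to 16.7%. In complex I it was 0 with the length correction, with or without the replicate block, against 1, in complex III 0 with the length correction against 1. In complex II it was 1 with each of the 3 length corrections against 0. In complex IV it was 2 with DESeq2, the replicate block and the choroid plexus covariate against 1. Leaving out 1 sample gave 0 to 1 in complex I.

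The number that were lower (0) was 10 with no composition factor (complex I 4, III 1, IV 1, V 4), 2 with at least 50 counts (complex I 2), 2 with DESeq2 (complex I 1, V 1), 1 with limma-voom (complex I 1), 15 with the length correction (complex I 5, III 2, IV 3, V 5) and 9 with that correction fitted without ribosomal protein genes (complex I 3, III 1, IV 2, V 3). Over all genes the lower shares in those fits were, in that order, 13%, 7.53%, 6.73%, 5.93%, 5.95% and 5.69%. Leaving out 1 sample gave 0 to 9 (complex I 0 to 3, III 0 to 1, IV 0 to 3, V 0 to 2), with the 9 reached without NS replicate 3. Over all genes the lower share was then 2.71% to 9.12%.

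The median log2 fold change (−0.10) was −0.23 with the length correction, with −0.24, −0.29 and −0.27 in complexes I, IV and V. With the choroid plexus covariate it was 0.0099, 0.038 and 0.0075 in complexes III, IV and V, and with no composition factor −0.18 in complex III. The log2 ratio of the summed CPM was then −0.11 for all members and −0.071, −0.13 and −0.18 for complexes II, III and V.

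Whether the replicate numbers pair the samples could not be settled with 3 samples per group. Deviations from the group means correlated at 0.47, −0.26 and 0.07 between samples of the same number, and not every sample correlated best with its own number. With a replicate block, 5 subunit genes were higher (6.1%) and 1 was lower (1.22%), with complex I 1 and complex IV 2 higher. Over all genes 9.7% were higher and 8.22% lower in that fit. With the length correction added, the shares over all genes were 16.7% higher and 7.82% lower, beside 4.88% and 24.4% of the subunit genes. With the block and the length correction, 4 were higher and 20 lower (complex I 8, III 2, IV 4, V 6), complex II had 1 higher and complex I 0, and the medians were −0.23 for all and −0.24, −0.29 and −0.26 for complexes I, IV and V. In that fit Cox6b1 turned to −0.29 (edgeR adjusted p = 0.0473), against 0.01.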
